A study of Homo sapiens with 6 samples.

Results

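The 10 genes described here encode cyclins and their kinases of the cell division cycle: the D cyclins CCND1, CCND2 and CCND3, the E cyclins CCNE1 and CCNE2, the A cyclin CCNA2, the B cyclins CCNB1 and CCNB2, and the interphase cyclin-dependent kinases (CDKs) CDK2 and CDK6. They were taken by symbol, as the probesets that the platform table assigns to that gene alone, which gave 116 of 216780 probesets with 1 symbol and 10 of the 16573 genes that have such a probeset. The cells were WI38, a normal diploid human lung fibroblast line with a finite life span, which limits the data to 1 line. AS1 and AS2 were cells transfected with either of 2 DNA antisense oligonucleotides against MALAT1, a long nuclear noncoding RNA, and Ctr were cells transfected with a control antisense oligonucleotide. All 3 groups received 100 nM oligonucleotide in 2 rounds with 24 h between them, with the same lipid reagent. Each group has 2 Affymetrix exon arrays, hybridised from 100 ng of total RNA per sample. No source says that the 2 arrays of a group came from separate cultures, so a p-value here is based on the scatter of these arrays alone, which may be technical.

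Cyclins are the activating subunits of CDKs and are made and destroyed in sequence. D cyclins with CDK4 or CDK6 begin the phosphorylation of the RB protein in G1, E cyclins with CDK2 act at the entry to S phase, cyclin A2 binds CDK2 in S phase and CDK1 later, and B cyclins with CDK1 drive mitosis. Transcripts of the E, A and B cyclins rise and fall with the cycle, while those of the D cyclins answer mainly to growth signals and the CDK2 and CDK6 transcripts vary less over the cycle. In a bulk sample a smaller share of cells in a phase and less RNA per cell cannot be told apart.

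The antisense oligonucleotides are given here because every comparison sets one or both against Ctr. Both are 20 bases long, written 5′ to 3′ from the study's oligonucleotide list, with 10 bases G or C in AS1 and 6 in AS2. Their target, MALAT1, lies on chromosome 11.
MALAT1-AS1: gggagttacttgccaacttg
MALAT1-AS2: atggaggtatgacatataat

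MALAT1 itself had gene values of 9.23 and 7.82 on the AS1 arrays and 8.19 and 8.13 on the AS2 arrays, against 12.004 and 11.97 on the Ctr arrays. All 4 oligonucleotide arrays were far below both Ctr arrays, with a change of -3.46 ± 0.33 with AS1 and -3.82 ± 0.33 with AS2 (limma adjusted p = 0.000115 and 4.2e-05). All values are log2 signals after robust multi-array averaging (RMA), a gene's value being the mean over its probesets, so a difference of 1 is a 2-fold change. Array medians lay between 7.34 and 7.36, and arrays of a group correlated at 0.984 to 0.987 over all probesets. AS1 arrays correlated with AS2 arrays at 0.978 to 0.986, so some were as close as arrays of a group. Oligonucleotide arrays correlated with Ctr arrays at 0.959 to 0.968. Fibroblast marker genes averaged 10.06 to 10.49 on the AS1 and AS2 arrays, against 10.67 to 10.86 on the Ctr arrays, while epithelial, endothelial and leukocyte lists averaged 4.85 to 6.07 on all 6 arrays. Single genes of these lists were brighter. In the endothelial list TEK stood at 8.94 and 8.83 and CLDN5 at 7.40 and 7.27 on the Ctr arrays. Of 12 fibroblast markers tested, 5 fell and 0 rose in the mean of AS1 and AS2 against Ctr (limma adjusted p under 0.05). Of all genes tested, 10.7% fell and 14.1% rose by that measure. The largest fibroblast changes were those of COL3A1 (-1.19), FAP (-0.72) and PDGFRA (-0.62). CLDN4 (0.96) and KRT7 (0.44) rose among 6 epithelial genes tested. PECAM1 rose (0.76) and TEK fell (-0.61) among 8 endothelial genes tested, and CD79A rose (1.64) among 7 leukocyte genes tested. A rise of 1 gene among 7 or 8 is near the share of all genes. The part of these shifts in the cyclin values was not tested.

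Across the 10 genes, the cyclins of S phase and mitosis were lower and CDK2 was higher in the mean of AS1 and AS2. The D cyclins and CDK6 did not pass the test. CCNE1, CCNB2 and CDK2 were not called with both oligonucleotides, and their calls in the mean were lost with some single arrays left out. In limma, with Benjamini-Hochberg adjustment over 15417 genes and a call at an adjusted p under 0.05, 4 of 10 were called with AS1, where 20.0% of all genes were called. All 4 were lower (CCNE1, CCNE2, CCNA2 and CCNB1), where 8.17% of all genes were called lower. With AS2 4 of 10 were called, where 20.9% of all genes were: CCNE2, CCNA2 and CCNB1 lower (9.29% of all genes) and CDK2 higher (11.6%). CCNE2, CCNA2 and CCNB1 were called lower with both oligonucleotides, as were 6.34% of all genes, and 0 of 10 were called higher with both, as were 8.53% of all genes. The 2 comparisons share the Ctr arrays. The mean of AS1 and AS2 against Ctr, which uses all 6 arrays, called 6 of 10, where 24.8% of all genes were called. CCNE1, CCNE2, CCNA2, CCNB1 and CCNB2 were lower (10.7% of all genes) and CDK2 was higher (14.1%). The median change in this comparison was -0.35 over the 10 genes and -0.04 over all genes tested.

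**Figure D1:**
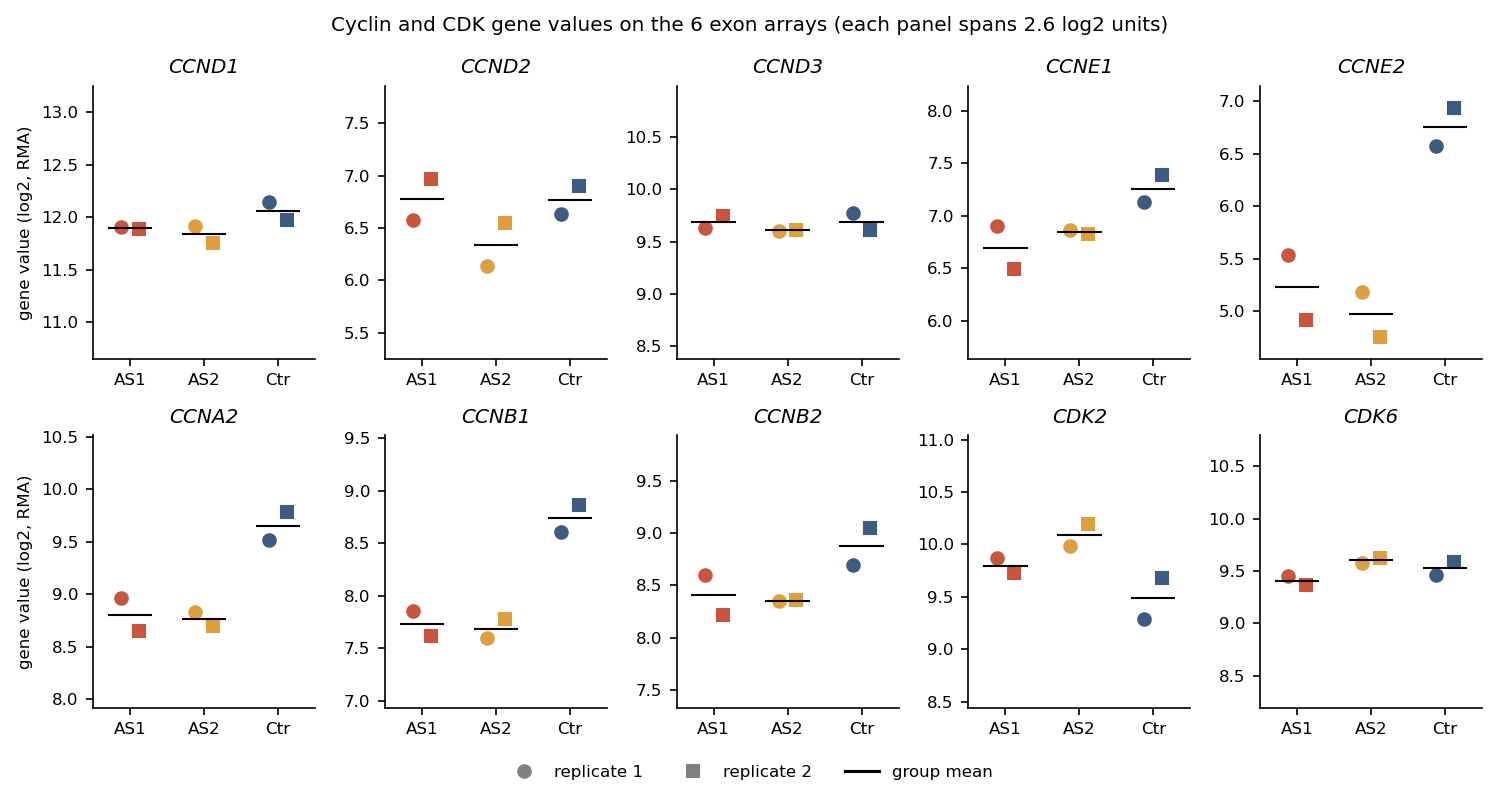
Gene value (log2, RMA) of each of the 10 genes on the 2 AS1, 2 AS2 and 2 Ctr arrays, with circles for replicate 1, squares for replicate 2 and a line at each group mean. Every panel spans 2.6 log2 units, so heights can be compared between panels: CCNE2 has the widest gap between the oligonucleotide and Ctr arrays, and in CCND2, CCND3 and CDK6 they overlap.

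The D cyclins carry growth signals to the cycle. CCND1, the cyclin D1 gene, had values of 11.90 and 11.89 with AS1 and 11.91 and 11.76 with AS2, against 12.15 and 11.97 in Ctr. The 4 oligonucleotide arrays all lay below both Ctr arrays, but by as little as 0.06, as 20.0% of all genes did. Its change was -0.16 ± 0.13 with AS1 (standard error; adjusted p = 0.448) and -0.23 ± 0.13 with AS2 (adjusted p = 0.295). The 95% confidence interval of the mean change ran from -0.45 to 0.06.

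CCND2, cyclin D2, had values of 6.58 and 6.97 with AS1 and 6.14 and 6.55 with AS2, against 6.64 and 6.90 in Ctr. The AS1 arrays overlapped the Ctr arrays, and the AS2 arrays lay below both. Its change was 0.01 ± 0.18 with AS1 (adjusted p = 0.981) and -0.43 ± 0.18 with AS2 (adjusted p = 0.139). The difference between the oligonucleotides, AS2 minus AS1, was -0.43 with a 95% interval of -0.84 to -0.03, but it did not pass after adjustment over all genes (adjusted p = 0.478).

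CCND3, cyclin D3, had values of 9.63 and 9.75 with AS1 and 9.60 and 9.62 with AS2, against 9.77 and 9.61 in Ctr. The groups overlapped and the mean change was -0.04 ± 0.11 (adjusted p = 0.833), with a 95% interval of -0.29 to 0.21. So 0 of 3 D cyclins were called with AS1, with AS2 or in their mean, and the lower bounds of the mean change were -0.45 for CCND1, -0.56 for CCND2 and -0.29 for CCND3. At an unadjusted p under 0.05 limma counted 1, CCND2 with AS2, and an ANOVA contrast without moderation counted 0 of the 3 with AS2. With the trend and robust options of limma CCND1 was called lower in the mean comparison (-0.20, adjusted p = 0.0458).

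The E cyclins bind CDK2. CCNE2, cyclin E2, showed the widest separation of the 10. It had values of 5.53 and 4.92 with AS1 and 5.18 and 4.75 with AS2, against 6.58 and 6.94 in Ctr. The highest oligonucleotide array lay 1.05 below the lowest Ctr array. The change was -1.53 ± 0.22 with AS1 (adjusted p = 0.00101) and -1.79 ± 0.22 with AS2 (adjusted p = 0.000318), which is 2.90-fold and 3.46-fold lower.

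CCNE1, cyclin E1, had values of 6.91 and 6.49 with AS1 and 6.86 and 6.83 with AS2, against 7.13 and 7.39 in Ctr. All 4 oligonucleotide arrays were below both Ctr arrays, and AS1 replicate 2 was the lowest. It fell by 0.56 ± 0.16 with AS1 (adjusted p = 0.0337). The AS2 change of -0.42 ± 0.16 did not pass (adjusted p = 0.103), but passed in a fit to AS2 and Ctr alone (adjusted p = 0.0459). Leaving out either AS1 array only repeats that test, since a group with 1 array adds nothing to the estimate of spread. The mean change was -0.49 ± 0.14 (adjusted p = 0.0271), or 1.40-fold lower. The call with AS1 was lost without AS1 replicate 2 or Ctr replicate 2. It was also lost without either AS2 array, which is the same test of AS1 against Ctr whichever AS2 array is left out. The call in the mean was lost without AS2 replicate 1 (adjusted p = 0.0771), without AS2 replicate 2 (adjusted p = 0.0955) and without Ctr replicate 2 (change -0.36, adjusted p = 0.182).

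CCNA2 encodes cyclin A2, which acts in S phase and G2. Its values were 8.97 and 8.65 with AS1 and 8.83 and 8.70 with AS2, against 9.51 and 9.79 in Ctr. The oligonucleotide arrays all lay below both Ctr arrays, and the AS2 arrays lay within the range of the AS1 arrays. With AS1 it was 1.80-fold lower (-0.85 ± 0.16, adjusted p = 0.00392), and with AS2 1.85-fold lower (-0.89 ± 0.16, adjusted p = 0.00268). The call with AS2 was lost without AS2 replicate 2 (adjusted p = 0.0505), and the mean change of -0.87 ± 0.14 was called with each array left out.

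CCNB1, cyclin B1 of the mitotic kinase, had values of 7.85 and 7.62 with AS1 and 7.60 and 7.78 with AS2, against 8.61 and 8.87 in Ctr. The gap between the nearest oligonucleotide and Ctr arrays was 0.76. CCNB1 was 2.01-fold lower with AS1 (-1.004 ± 0.15, adjusted p = 0.00123) and 2.07-fold lower with AS2 (-1.05 ± 0.15, adjusted p = 0.000764).

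CCNB2, cyclin B2, had values of 8.60 and 8.22 with AS1 and 8.35 and 8.36 with AS2, against 8.70 and 9.05 in Ctr. All 4 oligonucleotide arrays were lower than both Ctr arrays, but AS1 replicate 1 came within 0.09 of Ctr replicate 1. The change was -0.46 ± 0.17 with AS1 (adjusted p = 0.0811) and -0.52 ± 0.17 with AS2 (adjusted p = 0.0508), and neither passed. The mean change of -0.49 ± 0.14 passed (adjusted p = 0.0306), but was lost without AS2 replicate 1 (adjusted p = 0.0905), without AS2 replicate 2 (adjusted p = 0.0983) and without Ctr replicate 2 (change -0.31, adjusted p = 0.240). With AS1 it passed without AS1 replicate 1 (adjusted p = 0.0196) or Ctr replicate 1 (adjusted p = 0.0330). With AS2 it passed in a fit to AS2 and Ctr alone (adjusted p = 0.0157), a test that leaving out either AS1 array only repeats. With AS2 it also passed without Ctr replicate 1.

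Ctr replicate 2 was above Ctr replicate 1 in all 10 genes but CCND1 and CCND3. The difference was 0.39 for CDK2, the largest of the 10, 0.36 for CCNE2, 0.35 for CCNB2, 0.28 for CCNA2, 0.27 for CCND2, 0.26 for CCNE1 and CCNB1, and 0.12 for CDK6. In size it was below the changes of CCNE2, CCNA2 and CCNB1, and below the mean changes of CCNE1 (-0.49) and CCNB2 (-0.49). For CDK2 it was close to the mean change of 0.46 and above the AS1 change of 0.31. For CCND2 and CDK6 it was above the mean changes of -0.21 and -0.02. The part of this difference in the results was not tested.

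CDK2, the catalytic partner of cyclins E and A, had values of 9.87 and 9.72 with AS1 and 9.99 and 10.19 with AS2, against 9.29 and 9.68 in Ctr. All 4 oligonucleotide arrays were above both Ctr arrays, as for 21.5% of all genes, though AS1 replicate 2 exceeded Ctr replicate 2 by only 0.05. Its change was 0.31 ± 0.16 with AS1 (adjusted p = 0.214), and it rose by 0.61 ± 0.16 with AS2 (adjusted p = 0.0204), or 1.52-fold. That call was lost without AS2 replicate 1 (adjusted p = 0.0641), AS2 replicate 2 (adjusted p = 0.191) or Ctr replicate 1 (adjusted p = 0.148). The mean change of 0.46 ± 0.14 (adjusted p = 0.0320) was lost without AS2 replicate 1 (adjusted p = 0.0558), without AS2 replicate 2 (adjusted p = 0.123) and without Ctr replicate 1 (change 0.27, adjusted p = 0.344). In the mean comparison the transcript of the kinase thus rose while those of its cyclins CCNE1, CCNE2 and CCNA2 fell.

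CDK6, a catalytic partner of the D cyclins, had values of 9.45 and 9.36 with AS1 and 9.57 and 9.63 with AS2, against 9.47 and 9.59 in Ctr. The AS1 arrays lay just below both Ctr arrays, and the AS2 arrays overlapped them. Its change was -0.12 ± 0.13 with AS1 (adjusted p = 0.573) and 0.07 ± 0.13 with AS2 (adjusted p = 0.783), and the AS2 minus AS1 difference of 0.19 did not pass (adjusted p = 0.750).

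AS2 and AS1 themselves were compared in the same fit, and 0 of 10 genes were called, where 1.08% of all genes were. At an unadjusted p under 0.05 limma counted 1, CCND2, and an ANOVA contrast without moderation counted 0. The intervals for AS2 minus AS1 ran from -0.74 to 0.23 for CCNE2, from -0.39 to 0.30 for CCNA2 and from -0.38 to 0.28 for CCNB1. For all the calls above the moderated spread mattered: the ANOVA contrast called 0 of 10 against Ctr in any comparison. At an unadjusted p under 0.05 that ANOVA counted 3 with AS1, 4 with AS2 and 3 in their mean. The shares of all genes that pass in that ANOVA are not given here, so these counts cannot be set against a background.

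**Figure D2:**
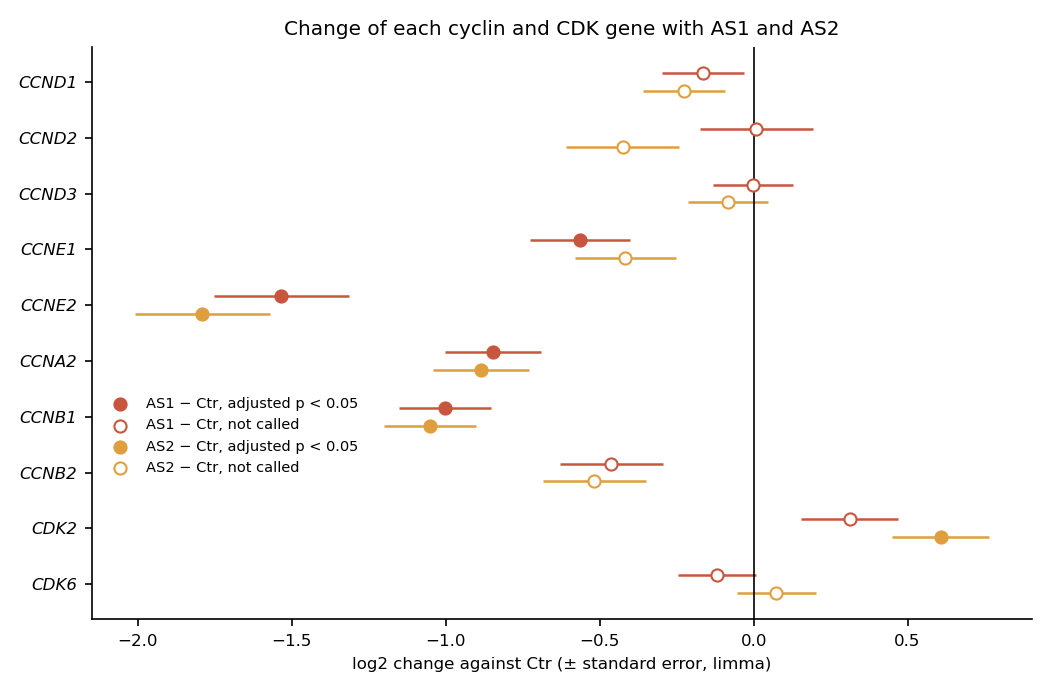
Change of each gene against Ctr with AS1 and with AS2 on the log2 scale, with limma standard errors as bars and filled points for an adjusted p under 0.05. CCNE2, CCNA2 and CCNB1 are filled for both oligonucleotides, CCNE1 only for AS1 (-0.56) and CDK2 only for AS2 (0.61).

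Paralogs were then set against each other within arrays, 6 pairs in all. The test was a two-sided exact permutation test over the 4 oligonucleotide and 2 Ctr arrays. With 15 arrangements the exact test cannot go below p = 0.133, so no pair could reach 0.05. CCNE2 minus CCNE1 was -1.37, -1.57, -1.68 and -2.07 on the AS1 and AS2 arrays, against -0.55 and -0.45 on the Ctr arrays. CCNE2 thus fell by 1.17 more than CCNE1, with no overlap (exact permutation p = 0.133, adjusted over the 6 pairs p = 0.200). CCNB2 minus CCNB1 was 0.76, 0.60, 0.76 and 0.58 on the AS1 and AS2 arrays, against 0.09 and 0.18 on the Ctr arrays. CCNB1 changed by 0.54 more in the downward direction (exact permutation p = 0.133). CDK6 minus CDK2 was -0.42, -0.36, -0.41 and -0.56 on the AS1 and AS2 arrays, against 0.18 and -0.09 on the Ctr arrays, a difference in change of -0.48 (exact permutation p = 0.133). Among the D cyclins the differences in change were 0.01 for CCND1 minus CCND2 (exact permutation p = 1.0), -0.15 for CCND1 minus CCND3 (exact permutation p = 0.133) and -0.17 for CCND2 minus CCND3 (exact permutation p = 0.8).

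The promoters of CCNE1, CCNA2, CCNB1 and CCNB2 are shown because these are the cyclins called lower in the mean comparison that the promoter table held. Each is 300 bases of the gene's strand, from 250 before to 50 after its start, from RefSeq on GRCh38.p14, where the table held 6 of the 10 genes. For a gene with several starts listed the table's first was taken. Capitals mark CCAAT boxes, on either strand, and the letters TTTGAA. The CCAAT box is the core of the NF-Y site, and the second motif is the usual core of the cell cycle genes homology region, which the DREAM complex uses for repression.
CCNE1 (chr19:29811741-29812040, plus strand): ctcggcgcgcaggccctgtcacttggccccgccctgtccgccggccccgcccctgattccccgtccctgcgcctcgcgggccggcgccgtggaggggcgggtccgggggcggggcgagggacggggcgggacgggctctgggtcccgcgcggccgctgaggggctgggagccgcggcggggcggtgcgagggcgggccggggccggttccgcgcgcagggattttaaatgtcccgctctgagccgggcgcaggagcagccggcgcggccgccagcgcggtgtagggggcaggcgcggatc
CCNA2 (chr4:121823834-121824133, minus strand): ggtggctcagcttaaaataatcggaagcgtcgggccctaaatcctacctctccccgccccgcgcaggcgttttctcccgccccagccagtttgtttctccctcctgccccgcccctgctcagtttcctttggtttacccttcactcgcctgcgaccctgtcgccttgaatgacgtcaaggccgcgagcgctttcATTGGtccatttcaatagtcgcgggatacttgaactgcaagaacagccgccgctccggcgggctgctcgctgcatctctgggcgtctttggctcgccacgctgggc
CCNB1 (chr5:69166900-69167199, plus strand): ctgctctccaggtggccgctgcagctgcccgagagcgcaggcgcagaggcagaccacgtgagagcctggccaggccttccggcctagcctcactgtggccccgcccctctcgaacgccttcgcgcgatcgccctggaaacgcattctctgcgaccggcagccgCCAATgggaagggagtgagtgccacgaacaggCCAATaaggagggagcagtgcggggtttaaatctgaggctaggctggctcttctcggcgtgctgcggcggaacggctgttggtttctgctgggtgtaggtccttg
CCNB2 (chr15:59104896-59105195, plus strand): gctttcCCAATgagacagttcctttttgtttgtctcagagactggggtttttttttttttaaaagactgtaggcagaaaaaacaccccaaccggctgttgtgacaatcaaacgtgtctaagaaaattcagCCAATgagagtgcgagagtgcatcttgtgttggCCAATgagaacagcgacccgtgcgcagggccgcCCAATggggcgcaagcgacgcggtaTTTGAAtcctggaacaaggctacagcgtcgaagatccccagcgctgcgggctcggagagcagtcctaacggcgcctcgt

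CCAAT boxes stood in the promoters of CCNA2, CCNB1 and CCNB2, as in 35.7% of 27305 promoters of the same length. A link between the promoter letters and the changes in signal was not tested. CCNA2 had 1, in the reverse direction, 56 bases before the start. CCNB1 had 2, at 87 and 55 bases before the start and so 32 bases apart. CCNB2 had 4, of which the last 3, at 120, 87 and 54 bases before the start, were 33 bases apart. The letters TTTGAA occurred in CCNB2 alone among the 6, 29 bases before the start, and in 15.4% of all promoters on either strand. Only these exact letters were sought, so other forms of this motif were not counted, and the other promoters may hold them. CCNE1, like CCND3 and CDK6, had 0 CCAAT boxes in this window. The letters GGGCGG (a GC box, either strand) occurred 7 times in CCNE1, 5 in CCND3, 3 in CDK6, 3 in CCNA2 and 1 each in CCNB1 and CCNB2, and in 44.6% of all promoters. TGACGT, found in sites of ATF and CREB factors, occurred 2 times in CCNA2, as overlapping matches on opposite strands from 81 bases before the start, and in 8.32% of all promoters. The E2F words TTTCCCGC, TTTCGCGC, TTTGCCGC and TTTGGCGC were in 0 of the 6 promoters and in 3.33% of all. Only these exact words were sought, so a promoter without them may still hold an E2F site.

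At the probeset level, each exon array probeset was also tested alone, with adjustment over 232479 probesets. Of the 116 probesets of these genes, 90 were lower and 26 higher in the mean of AS1 and AS2 against Ctr. Called lower were 27, or 23.3%, where 5.15% of all probesets were, and called higher were 0, where 5.61% were. Of the 26 higher ones, 6 had an unadjusted p under 0.05, all in CDK2. The called probesets belonged to CCNE2 (9 of 13), CCNB1 (9 of 13), CCNA2 (6 of 10), CCNB2 (2 of 9) and CCNE1 (1 of 13). The 27 lower calls became 12 without AS2 replicate 1, 9 without AS2 replicate 2, 6 without Ctr replicate 1 and 3 without Ctr replicate 2. The shares of all probesets called with an array left out are not given here. A loss particular to these probesets thus cannot be told from a general one. Probesets of a gene share its RNA and are not replicates of a condition.

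Within CCNE2 the probesets split. The 9 called ones changed by -2.47 to -1.79. Probeset 3145115, the lowest, stood at 6.02 and 4.50 with AS1 and 5.20 and 4.53 with AS2, against 7.20 and 7.87 in Ctr. Probeset 3145126, the brightest, stood at 9.04 and 9.40 with AS1 and 9.35 and 9.07 with AS2, against 9.54 and 9.25 in Ctr. The groups were 1.18 apart in 3145115 and overlapped in 3145126 (-0.18 ± 0.19, adjusted p = 0.609). Probeset 3145132, the next in the numbering, changed by -0.15 ± 0.16 (adjusted p = 0.625), and its groups overlapped as well. Probesets 3145117 (-1.04) and 3145120 (-0.54) did not pass, and both lie below the 25th percentile of brightness, as do 5 of the 13. The median of the probesets put the CCNE2 gene change at -1.996, against -1.66 for their mean. The files used here do not place these probesets on exons, so which part of the transcript they read was not analysed.

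**Figure D3:**
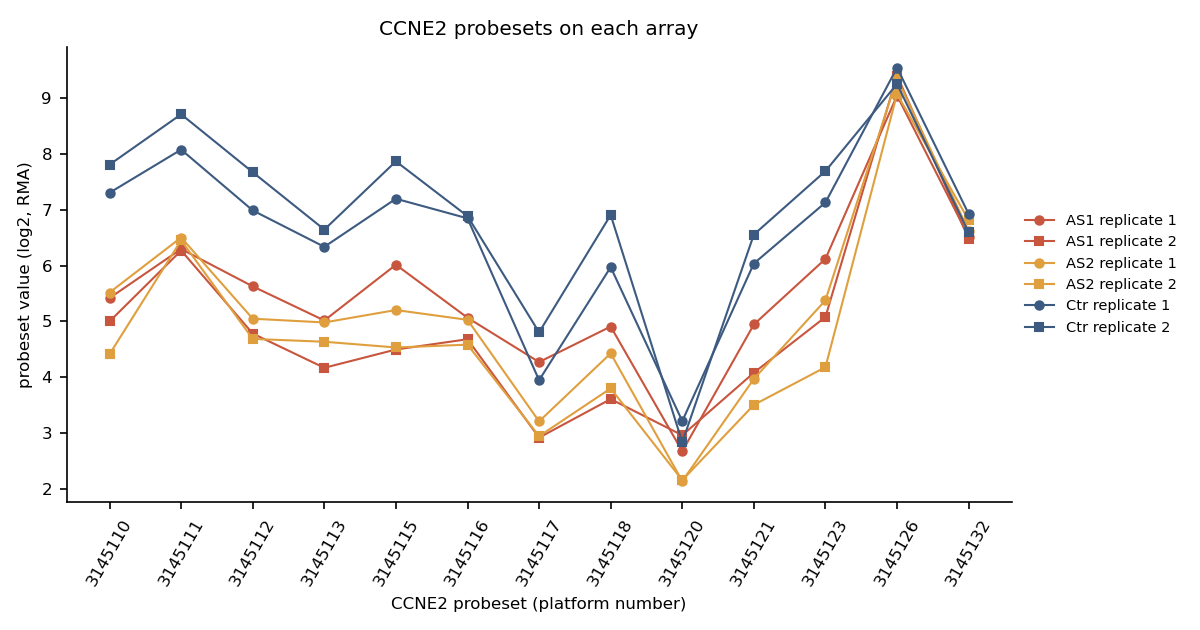
The 13 CCNE2 probesets in order of their platform number (horizontal) with the probeset value (log2, RMA) on each of the 6 arrays (lines; red AS1, orange AS2, blue Ctr). Both blue lines run above all others except at 3145117, 3145120, 3145126 and 3145132, where the groups overlap.

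Every probeset of CCNA2 and CCNB1 was lower. CCNA2 ran from -1.35 ± 0.22 (2784125) to -0.55 ± 0.20 (2784121). CCNB1 ran from -1.71 ± 0.18 (2813434) to -0.48 ± 0.31 in 2813435, which is among the dimmest probesets. CCNB2 was lower in all 9, from -0.86 (3595990) to -0.09 (3595997, below the 25th percentile of brightness). CCNE1 was lower in 11 of 13, from -1.13 ± 0.49 (3828133) to 0.09 ± 0.21 (3828127), with the 1 called at -0.78 (3828137, adjusted p = 0.0313).

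CDK2 was higher in all 10 probesets, from 0.03 (3417147) to 0.92 (3417155, adjusted p = 0.0768), and 0 were called, with 6 at an unadjusted p under 0.05. CCND1 was lower in all 10, from -0.34 (3338194) to -0.04 (3338214), with 0 called and 0 at an unadjusted p under 0.05. CDK6 was split, with 11 lower and 8 higher, from -0.36 (3061400) to 0.43 (3061336). CCND2 was lower in 8 of 9 (-0.64 in 3401739 to 0.18 in 3401721), and CCND3 was lower in 5 and higher in 5 of 10.

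**Figure D4:**
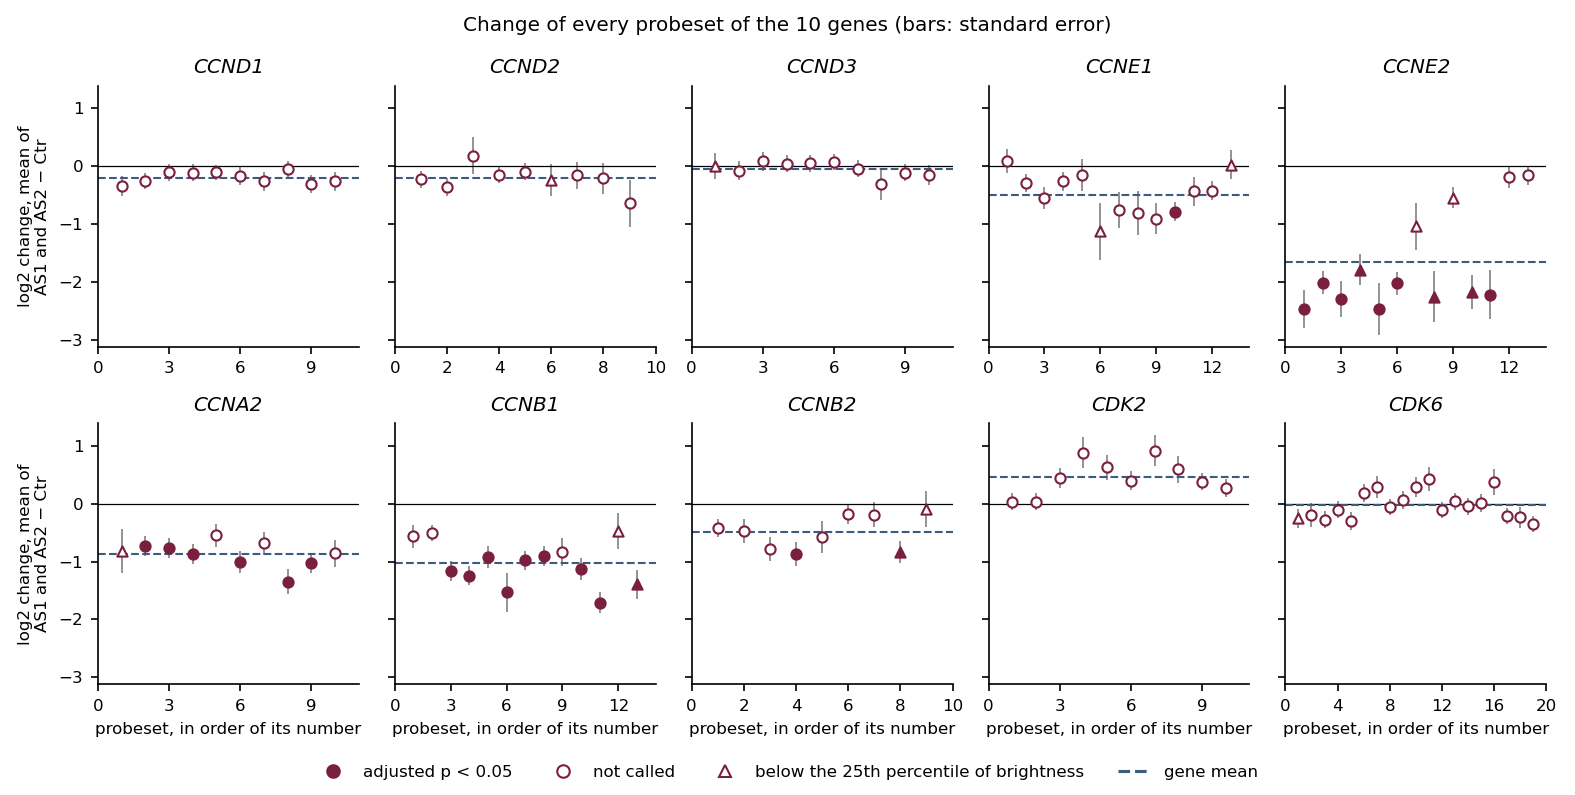
Change of each of the 116 probesets in the mean of AS1 and AS2 against Ctr (log2, bars are standard errors), by gene and in order of probeset number. Filled points passed an adjusted p under 0.05, triangles mark probesets below the 25th percentile of brightness, and the dashed line is the change of the gene mean, which is -1.66 for CCNE2 and 0.46 for CDK2.

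Whether the probesets of a gene changed by unequal amounts was tested with limma's diffSplice F test on the brighter probesets. Of the 8 genes that passed its filter, 2 were called, CDK6 (adjusted p = 0.00884) and CCNB1 (adjusted p = 0.0279), while 29.7% of all 9688 genes tested were called, a share above that of the 8. In CCNB1 the probeset of smallest p, 2813434, changed by 0.73 more in the downward direction than the rest (adjusted p = 0.0442). In CDK6 it was 3061336, at 0.47 above the rest (adjusted p = 0.0513). Neither call held without Ctr replicate 1, where the adjusted p was 0.425 for CCNB1 and 1.0 for CDK6. The CCNB1 call was also lost without AS1 replicate 2, without Ctr replicate 2 and without either AS2 array (adjusted p of 0.0752 to 0.285), and the CDK6 call without AS1 replicate 1 (adjusted p = 0.138) or AS2 replicate 2 (adjusted p = 0.120). CCND2 and CCNE2 were too dim for the filter. With no filter CCNE2 was called (adjusted p = 0.000617), where 21.5% of all genes were, and its probesets 3145126 and 3145132 stood 1.61 and 1.64 above the rest (adjusted p = 0.0143 and 0.0120). Without the filter CDK6 was still called (adjusted p = 0.0149) and CCNB1 was not (adjusted p = 0.0586).

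The partners that act on these genes' proteins were described from lists, each against the background of 10.7% lower and 14.1% higher. Among other cyclins and CDKs of the cell cycle, 2 of 12 fell and 2 rose, with a median of 0.02. CDC2, the older symbol of CDK1, the mitotic partner of the A and B cyclins, had values of 6.88 and 6.10 with AS1 and 5.89 and 5.68 with AS2, against 7.59 and 7.99 in Ctr. Its groups did not overlap, and it fell by 1.65 ± 0.20 (adjusted p = 0.000246), nearly as much as CCNE2. The atypical cyclins CCNG1 (0.65), a p53 target, and CCNG2 (0.62) rose. CDK4, the other partner of the D cyclins, did not pass (0.18 ± 0.11, adjusted p = 0.307).

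Among CDK activators and adaptors 3 of 8 fell and 1 rose, with a median of -0.11. The phosphatases that switch CDKs on, CDC25A (-0.65) and CDC25B (-0.63), fell. SPDYA, a CDK2 activator unrelated to the cyclins in sequence, rose by 1.27 ± 0.15 (adjusted p = 0.000222), at low values of 4.83 and 4.44 with AS1 and 4.97 and 5.40 with AS2, against 3.67 and 3.61 in Ctr.

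Among kinases and inhibitors that restrain CDKs 5 of 10 fell and 1 rose, with a median of -0.28. CDKN3 (-0.86), a phosphatase that removes the activating phosphate of CDK2, and CDKN2C (-0.73), an inhibitor of CDK4 and CDK6, fell. CDKN1A, the inhibitor p21 of CDK2 complexes, rose by 0.61 ± 0.11 (adjusted p = 0.00228), at 11.44 and 11.38 with AS1 and 11.29 and 11.36 with AS2, against 10.80 and 10.73 in Ctr.

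Among genes of cyclin destruction 4 of 18 fell and 3 rose, with a median of -0.16. FBXW7, the ubiquitin ligase subunit that binds cyclin E, rose by 0.87 ± 0.13 (adjusted p = 0.000752). SKP2 (-0.80), which directs destruction of the CDK inhibitor p27, and FBXO5 (-0.70), an inhibitor of the anaphase-promoting complex, fell.

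Among RB family and E2F factors 4 of 12 fell and 2 rose, with a median of -0.25. The atypical repressors E2F7 and E2F8 moved in opposite directions, with a change of 1.30 ± 0.15 for E2F7 (adjusted p = 0.000184) and -1.22 ± 0.12 for E2F8 (adjusted p = 8.6e-05). TFDP2 (0.61), a dimer partner of E2F factors, rose. Among cyclins and CDKs of transcription, which are not periodic, 3 of 12 fell and 5 rose, with a median of 0.24. CCNL1 (0.65) and CDC2L6, now CDK19 (0.63), rose, and CDK9 (-0.59), the kinase of P-TEFb, fell.

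**Figure D5:**
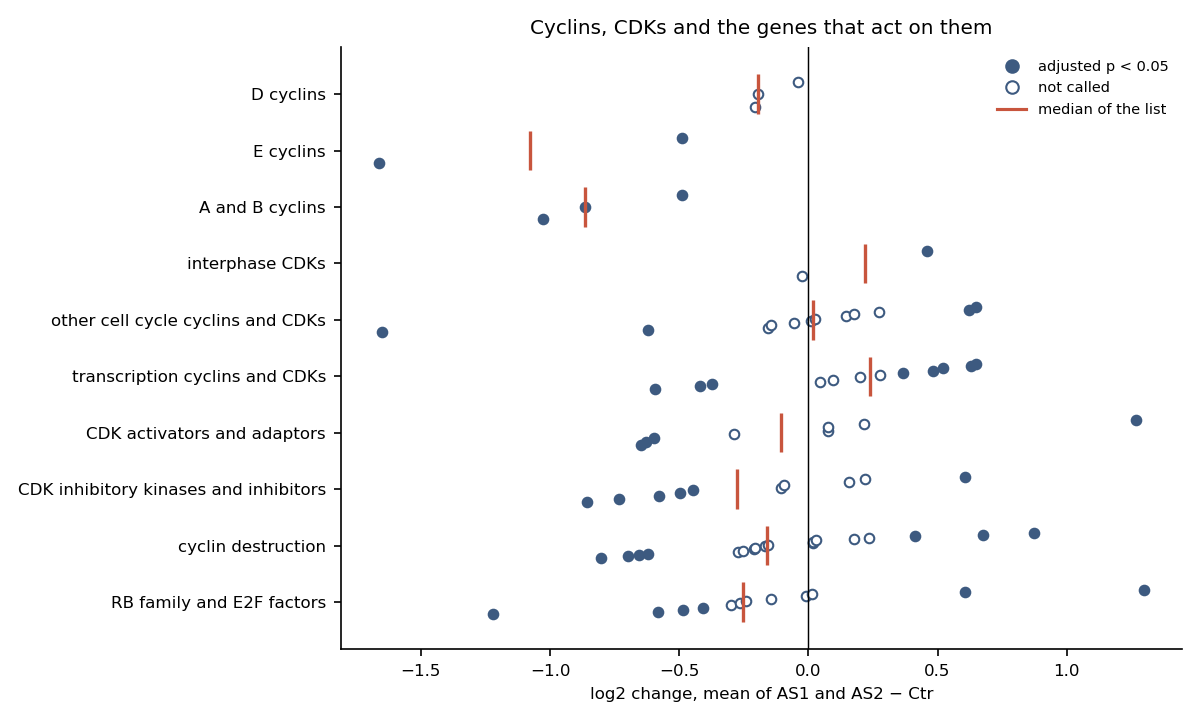
Change of every tested gene of each list in the mean of AS1 and AS2 against Ctr (log2, horizontal), with filled points for an adjusted p under 0.05 and a red line at the median of the list. The D, E, A and B cyclins all lie left of 0, with filled points for the E, A and B cyclins and open ones for the D cyclins, while the transcription cyclins and CDKs have a median of 0.24.

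For the member of each family with the largest mean change, the tested genes whose arrays ran most like it were found by the root mean square difference over the 6 arrays, each gene set relative to its Ctr mean. For CCNE2 these were KIF20A (0.053), MKI67 (0.108) and ASF1B (0.124). For CCNB1 they were CDC6 (0.038), SYTL2 (0.063) and FBXL4 (0.067). For CCND2 they were STX8 (0.084), GRK5 (0.088) and TCEAL8 (0.098), whose changes were -0.02 to 0.03 with AS1 and -0.42 to -0.32 with AS2. For CDK2 they were ACN9, now SDHAF3 (0.040), FRG1 (0.046) and KIAA1430, now CFAP97 (0.049). KIF20A, a mitotic kinesin, changed by -1.67 and CDC6, a replication licensing factor, by -1.02. SYTL2 changed by -1.01 and FBXL4 by -1.05. The measure picks genes by the likeness of their values, so near-equal changes follow from it.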

How the data were processed

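RNA from WI38 cells was measured on Affymetrix Human Exon 1.0 ST arrays, 2 each for AS1, AS2 and Ctr, with groups and replicate numbers from the sample titles. The authors deposited log2 values per probeset after RMA, and the submitters' processing notes name RMA and Partek; no source used here gives versions, a genome build or array batches. All arrays were normalized together, which can hide a shift shared by all genes. The number of arrays limits the precision, and signals compare only within a probeset or gene.

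Probesets were named by the platform's symbols, which can be old: of 232479, 216780 had 1 symbol, 13364 had none and 2335 had several. Gene values average the probesets of that gene alone, and 15417 genes with at least 3 entered the tests. limma 3.58.1 in R 4.3.3 fitted the 3 groups in 1 model, with Benjamini-Hochberg adjustment and a call at an adjusted p under 0.05. Probesets were fitted alike. diffSplice left out probesets below the 25th percentile of brightness and genes below the median level, and assumes an equal spread in all probesets of a gene. Scripts were checked on simulated data. Alternatives covered the gene summary, filters, normalization, test, threshold and each array left out.

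The members and lists were chosen with earlier results of these data known. The text names every member, per member the probesets of lowest and highest change and of smallest diffSplice p, and up to 3 called genes per list by size of change. CDK4 and CCNE2 probesets 3145117, 3145120 and 3145126 were named after their values were seen.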

Additional observations from a re-analysis of the deposited data

How the results depend on the processing

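CCNE2, CCNA2 and CCNB1 were called in the mean of AS1 and AS2 with each array left out. Of 109 single-gene values under other settings, 87 kept direction and call, 21 lost the call, 1 gained it (CCND1 with the trend and robust options, adjusted p = 0.0458) and 0 reversed. Of 60 with an array left out, 49 kept both, 9 lost the call and 2 reversed: CCND3, whose range was -0.12 to 0.037, without Ctr replicate 1, and CDK6, whose range was -0.084 to 0.038, without Ctr replicate 2. The count of genes called against Ctr (4 with AS1, 4 with AS2, 6 in the mean) was 0 in all 3 with the ANOVA contrast without moderation, where an unadjusted p under 0.05 counted 3, 4 and 3. The cutoff of the methods, a change over 2-fold with p under 0.001, taken here as unadjusted, gave 2 in all 3 with limma and 0 with ANOVA. With AS2 CCNB2 was also called after quantile normalization again (adjusted p = 0.0422), with the trend and robust options (adjusted p = 0.00599) and with the filter on dim genes (adjusted p = 0.0393). The median of probesets gave 3 in the mean comparison, losing CCNE1 (adjusted p = 0.236), CCNB2 (adjusted p = 0.232) and CDK2 (adjusted p = 0.134). Leaving out each array gave 3 to 5 with AS1, 2 to 6 with AS2, 3 to 6 in the mean and 0 for AS2 against AS1. The 27 called probesets became 42 with the trend and robust options and 3 to 22 with an array left out. The 2 genes with unequal probeset changes became 0 with the Simes test, 1 with the splicing index and 0 to 2 with an array left out. It stayed 2 when all probesets under the 50th percentile of brightness were left out, where CCNE1 was called (adjusted p = 0.0494) and CCNB1 was not (adjusted p = 0.196). With an array left out the pairs ranged from -0.21 to 0.23 (CCND1 minus CCND2, turning to -0.14 without AS2 replicate 1 and -0.21 without Ctr replicate 2), -0.19 to -0.13 (CCND1 minus CCND3), -0.38 to 0.045 (CCND2 minus CCND3, turning to 0.045 without Ctr replicate 2), -1.27 to -1.04 (CCNE2 minus CCNE1), 0.49 to 0.58 (CCNB2 minus CCNB1) and -0.61 to -0.35 (CDK6 minus CDK2). The median of probesets turned CCND1 minus CCND2 to -0.11 and CCND2 minus CCND3 to 0.032. The causes were not tested.

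Replicate numbers did not pair the arrays in the same way in all groups. Over the 15417 genes, deviations from the group means correlated at -0.34 (AS1 and AS2), -0.51 (AS1 and Ctr) and 0.39 (AS2 and Ctr). Replicate 1 of AS1 thus went with replicate 2 of AS2 and of Ctr. The replicate block follows the numbers, which run with this shared difference in AS2 and Ctr and against it in AS1. It can therefore take up only part of that difference, whose source was not tested. With the replicate block, 3 genes were called with AS1, 4 with AS2 and 4 in the mean, where CCNE1 (adjusted p = 0.0511) and CCNB2 (adjusted p = 0.0582) were not. The block gave 17 called probesets and 1 gene with unequal probeset changes, and no share of all genes is set beside these counts. A fit to only the groups compared has no value for the mean, and the filter on dim genes left CCNE2 untested.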
